A study of Mus musculus with 4 samples.

Results

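Cwc22 and 9 genes whose products work with it or downstream of it at exon junctions were followed by RNA sequencing in cultured mouse astrocytes, the glia that support neurons. The 10 genes are Cwc22, the exon junction complex genes Eif4a3, Magoh, Magohb, Rbm8a and Casc3, and the nonsense-mediated decay genes Upf1, Upf2, Upf3b and Smg1. They were found by gene symbol among 55467 gene IDs, each symbol on 1 ID, and all 10 passed the filter of a mean of at least 1 FPKM (fragments scaled to transcript length and to the mapped fragments of the library). Cwc22 was selected on its FPKM in these same libraries, CD38 KO against WT, so its own difference is described here and not tested. The partners were added for their known link with it, and the question is whether their transcripts follow it.

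The libraries came from 2 samples of CD38 KO astrocytes and 2 samples of wild-type (WT) astrocytes, cultured from the cortex of pups aged 1 to 3 days. CD38 is a cell-surface enzyme that uses up NAD+. The cells were grown for 14 days in medium with 10% serum, shaken for 12 h to remove loose cells, replated and harvested after 5 more days. The labels do not give the mouse strains or the deleted exons, so the loss of Cd38 and any difference in strain background between the genotypes cannot be told apart in any result. Nor do they say whether the replicates of a genotype came from different animals or cultures. The p-values therefore measure only the spread between these libraries, which may be technical.

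The exon junction complex marks spliced messenger RNA. Splicing leaves the complex just upstream of exon junctions. Its core, once complete, holds the helicase protein of Eif4a3, a heterodimer of a Magoh protein with the Rbm8a protein, and the Casc3 protein. CWC22, a protein of the spliceosome, brings the Eif4a3 protein to the splicing machinery, and it is needed for the complex to be deposited. A complex that stays on the RNA downstream of a stop codon recruits the UPF proteins, and the kinase SMG1 then phosphorylates UPF1, which leads to nonsense-mediated decay of that transcript.

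Depth, recovered from the steps of the low values, was estimated at 29033800 and 29090400 fragments in the CD38 KO libraries and at 26840200 and 28253200 fragments in the WT libraries. Cd38 was at 0.0222 FPKM in each CD38 KO library, against 3.13 and 3.45 FPKM in the WT libraries, as the labels name them. Astrocyte markers were abundant in all 4 libraries. Gfap, the glial filament gene, was at 1198 and 1225 FPKM in CD38 KO and at 1390 and 1330 FPKM in WT, and the 10 astrocyte markers summed to 2858 and 2896 FPKM in CD38 KO and to 3336 and 3232 FPKM in WT. Single astrocyte markers differed in both directions. A call is an adjusted p of limma below 0.05, as set out below. Of the 10 markers, 2 were called higher (Aldh1l1 and Gja1) and 6 lower, among them S100b at 38.3% of its WT level. Of all tested genes, 8.0% were called higher and 6.35% lower. Markers of microglia and macrophages differed more. Those 12 markers summed to 248 and 223 FPKM in CD38 KO and to 32.1 and 30.6 FPKM in WT, and none was at 0. Of the 12, 11 had both CD38 KO libraries above both WT libraries, a pattern that 30.4% of all tested genes had. P2ry12 overlapped and was below 1 FPKM in every library. Markers of the oligodendrocyte lineage summed to 133 and 146 FPKM in CD38 KO and to 171 and 164 FPKM in WT. Of the 5 tested, 2 were called lower (Pdgfra and Olig2). Olig1, the largest part of that sum, was at 112 and 125 FPKM in CD38 KO and at 141 and 134 FPKM in WT, and was not called. Neuron markers summed to 78.1 and 80.9 FPKM in CD38 KO and to 106 and 118 FPKM in WT. Of the 3 tested, 1 was called lower (Gad1). Gad1 was the largest part of that sum, at 46.1 and 41.7 FPKM in CD38 KO and at 71.4 and 81.5 FPKM in WT. Map2 overlapped between the genotypes at 111% of its WT level, and Tubb3 was at 84.8% without a call. Rbfox3, Snap25, Syt1 and Slc17a7 were below 1 FPKM in every library, so the neuron sum mostly follows Gad1. Of the 4 fibroblast and mural markers tested, 0 were called, and no endothelial marker passed the filter. In bulk RNA, fewer cells of a type and less RNA per cell cannot be told apart.

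Cwc22 was the most abundant of the 10 transcripts in WT astrocytes and stood at about the level of Casc3 in CD38 KO astrocytes. Cwc22 (ENSMUSG00000027014, GRCm38 chr2:77881159-77946375, minus strand, a protein-coding gene) was at 15.9 and 16.3 FPKM in CD38 KO and at 214 and 265 FPKM in WT. Both CD38 KO libraries were far below both WT libraries. The mean was 16.1 ± 0.337 FPKM in CD38 KO and 240 ± 36.3 FPKM in WT (SD, n = 2 each), which puts CD38 KO at 6.72% of WT, 14.9-fold lower. Among the 13064 tested genes ordered by FPKM, Cwc22 held places 5623 and 5458 in the CD38 KO libraries and places 366 and 273 in the WT libraries. On the scale of log2(FPKM + 1) the difference was -3.81, and it lay between -3.96 and -3.65 with each library left out in turn. No p is given for Cwc22, since this contrast chose it. For the same reason the range with a library left out only describes these libraries.

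**Figure D1:**
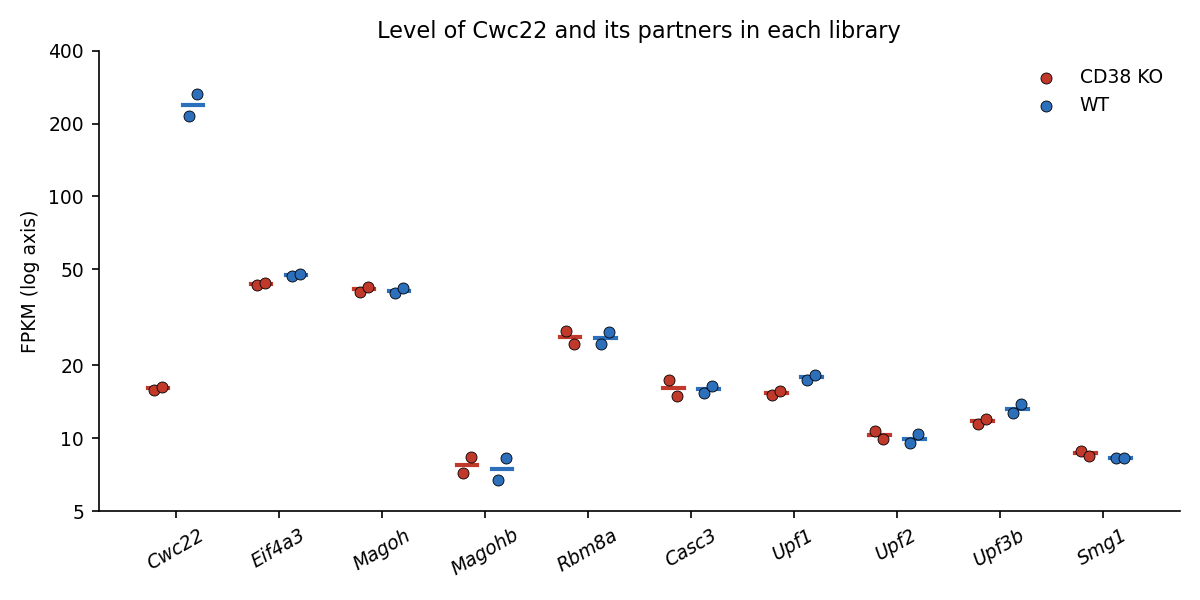
FPKM of Cwc22 and its 9 partners on a log axis, with a point for each library (CD38 KO red, WT blue) and a bar at the mean of 2 libraries. Cwc22 is at 15.9 and 16.3 FPKM in CD38 KO, against 214 and 265 FPKM in WT, while each partner keeps within 86.5% to 104% of its WT mean.

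Cwc22 has close copies in the reference genome, which bears on how far its FPKM can be assigned to the locus. In several mouse strains, a segment that carries Cwc22 is known to be present in additional copies. On GRCm38 the GENCODE M21 annotation holds 7 genes that match Cwc22 over bases 391 to 2885 of its 3471-base transcript, namely Gm13691 and Gm13693 to Gm13698. They lie in a row at chr2:83955693-83993045 on the plus strand, 5810 bases apart, the first 6.07 Mb from the start of Cwc22. Of the 7, 6 have the same 2493 bases and the other differs from them by 1 base. The locus of each copy is no longer than these 2493 bases, while the Cwc22 locus covers 65217 bases. The 7 genes therefore hold no introns and are not copies of the whole Cwc22 locus. Aligned with the coding bases of Cwc22, Gm13691 had 39 substitutions and 40 gap positions in 2514 aligned positions. The first pair of sequences, in coding bases from 5′ to 3′, shows the start codon end, bases 1 to 87 of Cwc22 and bases 1 to 90 of Gm13691. Capitals mark positions that differ or are missing in the other gene.
Cwc22: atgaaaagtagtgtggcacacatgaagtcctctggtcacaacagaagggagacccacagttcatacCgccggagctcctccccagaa
Gm13691: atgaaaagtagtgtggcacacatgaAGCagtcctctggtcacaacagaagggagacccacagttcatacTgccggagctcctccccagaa
The second pair is the 90-base window without a gap that differed most, with 7 differing positions in capitals, at bases 218 to 307 of Cwc22 and bases 221 to 310 of Gm13691.
Cwc22: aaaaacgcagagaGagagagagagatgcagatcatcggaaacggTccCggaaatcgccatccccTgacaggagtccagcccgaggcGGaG
Gm13691: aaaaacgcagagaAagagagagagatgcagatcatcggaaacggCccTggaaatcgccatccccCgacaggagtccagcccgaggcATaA
Even there most bases are shared, and the 2 genes had an identical stretch of 344 bases. Of 2415 windows of 100 bases, 475 were identical in both genes (19.7%), and the median window had 2 differing positions.

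**Figure D2:**
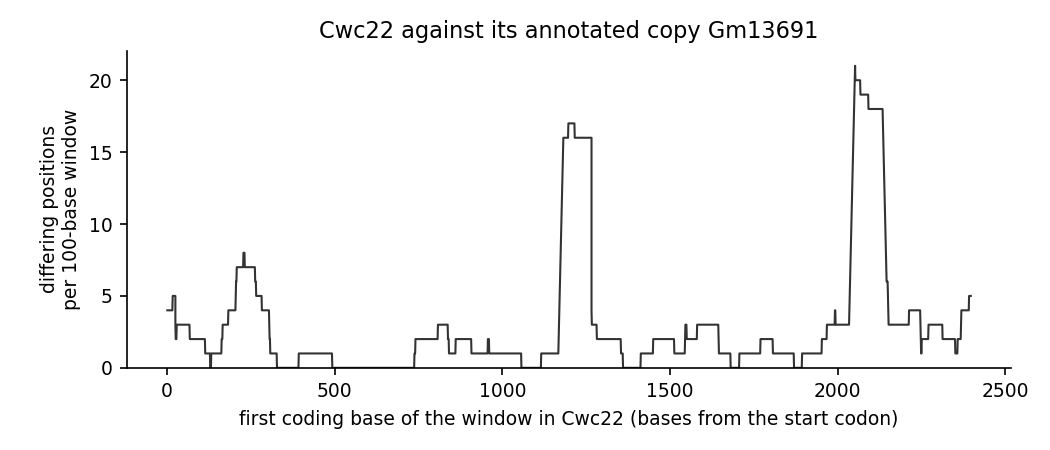
Differing positions, gaps included, between the coding bases of Cwc22 and its annotated copy Gm13691 in each 100-base window, by the first coding base of the window counted from the start codon of Cwc22. The line is at 0 over 475 of 2415 windows and reaches 21 differing positions in the window that differs most.

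All 7 copies were listed at 0 FPKM in all 4 libraries. Since 6 of the 7 are identical and the other differs by 1 base, nearly any fragment from a copy matches several places. Depending on how such fragments were assigned, a listed 0 need not mean that a copy had no transcript. The zeros therefore do not place the difference between the genotypes at the Cwc22 locus. How fragments that match several places were assigned is not given in the sources used here. The Cwc22 FPKM of either genotype could therefore include fragments from copies, annotated or not, and this was not tested. Gm13727, annotated as a processed transcript on the same strand (chr2:77879753-77881467), shares 309 bases of the locus with Cwc22. It was listed at 0 in both CD38 KO libraries, and at 0.746 and 0.730 FPKM in the WT libraries. The pseudogene Gm13726 nearby was also listed at 0 in CD38 KO, and at 0.119 and 0.0567 FPKM in WT. Neither passed the filter for testing, and the copies and these 2 genes were chosen for naming once their values were known.

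None of the 9 partners was called different between the genotypes. A gene is called when the adjusted p of limma is below 0.05 over the 13064 genes tested, and 14.4% of those genes were called. The 9 partners lay between 86.5% and 104% of their WT level in CD38 KO. Their median change was 0.02 on the log2 scale, beside 0.00 for all tested genes, and the changes ran from -0.20 to 0.05. The middle 50% of all tested genes ran from -0.11 to 0.13. Over the 9 partners, the 95% intervals reached at most from -0.34 to 0.34. An unadjusted p under 0.05 was found for 2 partners, Eif4a3 and Upf1, against 30.3% of all genes. The partners called remained 0 under each of the 14 alternative settings tried.

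**Figure D3:**
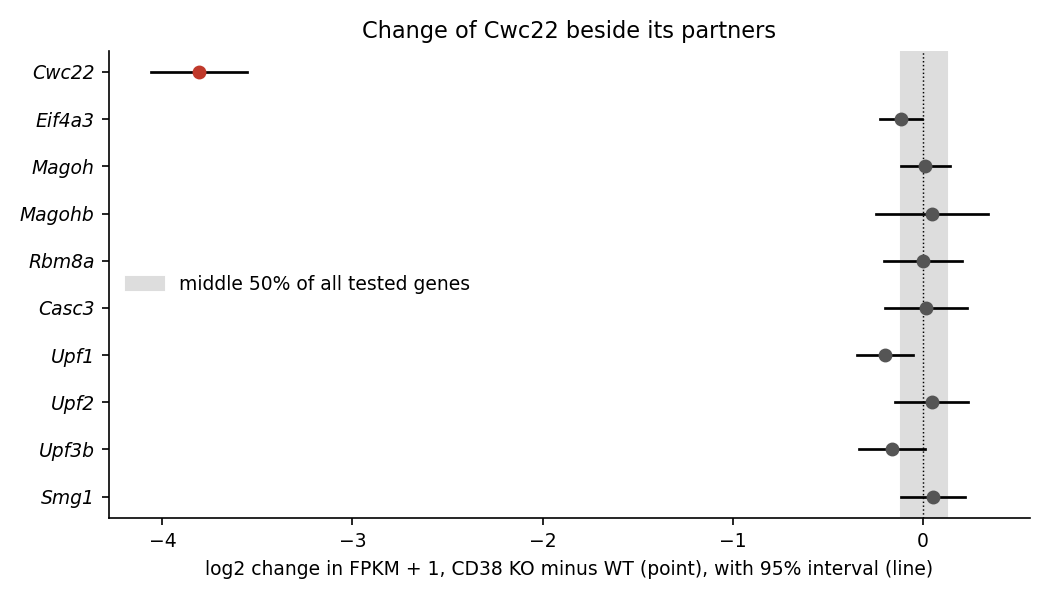
Change in log2(FPKM + 1), CD38 KO minus WT, of Cwc22 (red) and its 9 partners (grey), with 95% intervals from limma as lines. The grey band holds the middle 50% of all tested genes, from -0.11 to 0.13. Cwc22 is at -3.81 and the partners lie between -0.20 and 0.05. Cwc22 was chosen on this contrast, so its line is not a test.

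Eif4a3, the helicase that clamps the complex on RNA and binds CWC22 directly, was slightly lower without passing the test. Eif4a3 (chr11:119288363-119300089, minus strand) was at 43.1 and 43.9 FPKM in CD38 KO and at 46.7 and 47.7 FPKM in WT. Both CD38 KO libraries were below both WT libraries, a pattern of no overlap in this direction that 29.5% of all tested genes had. The log2 change was -0.11 (SE 0.04, 95% interval -0.23 to -0.00250, limma adjusted p = 0.158, n = 2 each), or 92.2% of the WT level. Relative to the FPKM of Cwc22, the balance between the genes was very different, which follows from the choice of Cwc22 on its own difference. The ratio of Eif4a3 FPKM to Cwc22 FPKM was 2.72 and 2.69 in CD38 KO, against 0.218 and 0.180 in WT, and nearly all of that difference is in Cwc22. The translation factors Eif4a1 and Eif4a2, paralogs of Eif4a3, were at 214 and 209 FPKM in CD38 KO and 215 and 213 FPKM in WT for Eif4a1, and at 256 and 255 FPKM in CD38 KO and 258 and 254 FPKM in WT for Eif4a2. Neither passed the test (limma adjusted p = 0.819 and 0.933).

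Magoh and Magohb encode near-identical proteins that fill the same place in the core, and both transcripts had overlapping libraries. Magoh (chr4:107879755-107887424, plus strand) was at 40.3 and 42.2 FPKM in CD38 KO and at 39.8 and 41.8 FPKM in WT. Its log2 change was 0.02 (SE 0.05, 95% interval -0.12 to 0.15, limma adjusted p = 0.880). Magohb (chr6:131284388-131293244, minus strand) was the lowest of the 10 genes in FPKM, at 7.17 and 8.38 in CD38 KO and at 6.74 and 8.26 in WT. Its interval of -0.25 to 0.34 was the widest among the partners (log2 change 0.05, SE 0.12, limma adjusted p = 0.822). The pair is shown here because a fragment has to be assigned to the right gene for these levels to hold. Over their coding bases, 441 in Magoh and 447 in Magohb, the genes differed by 84 substitutions, with 81.0% identity. The first 90 coding bases, 5′ to 3′, hold 21 differing positions, in capitals.
Magoh: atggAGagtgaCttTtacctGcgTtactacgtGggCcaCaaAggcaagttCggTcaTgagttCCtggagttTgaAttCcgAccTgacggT
Magohb: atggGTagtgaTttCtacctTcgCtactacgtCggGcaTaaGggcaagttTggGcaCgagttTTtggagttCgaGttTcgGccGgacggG
No window of 100 bases was identical in Magoh and Magohb (0 of 342), and the longest identical stretch was 17 bases.

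The other core genes also overlapped between the genotypes. Rbm8a (chr3:96629933-96633791, plus strand), whose protein pairs with the Magoh proteins, was at 27.6 and 24.6 FPKM in CD38 KO and at 24.6 and 27.6 FPKM in WT. The log2 change of Rbm8a was 0.00 (SE 0.08, 95% interval -0.20 to 0.21, limma adjusted p = 0.989). Casc3 (chr11:98804905-98833814, plus strand), the most loosely bound of the core proteins, was at 17.4 and 15.0 FPKM in CD38 KO and at 15.3 and 16.5 FPKM in WT. Its log2 change was 0.02 (SE 0.09, 95% interval -0.20 to 0.23, limma adjusted p = 0.905). In Rbm8a the libraries of a genotype lay about as far apart as the most distant libraries of different genotypes. In Casc3 this held for the CD38 KO libraries, while the WT libraries lay closer together.

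Close copies of the core genes had low FPKM in the files, which assign fragments between a gene and its copies in a way not given in the sources used here. For Eif4a3, Eif4a3l1, Eif4a3l2 and Gm5576 on chromosome 6 matched 95.6%, 96.4% and 96.8% of the aligned bases, and no library had more than 0.148 FPKM of any of them. Rbm8a2 on chromosome 1 matched Rbm8a at 97.5% over 721 aligned bases and reached at most 0.0908 FPKM. Gm44958, a pseudogene entry inside the Magohb locus, has 521 bases in common with a Magohb transcript and reached at most 0.135 FPKM. Gm12359 runs antisense to Casc3 over 465 bases of its transcript, and was at 0.264 and 0.852 FPKM in CD38 KO and at 0.446 and 0.492 FPKM in WT. The libraries were stranded, but whether the counting used the strand is not given in the sources used here. For Magoh, Upf1, Upf2, Upf3b and Smg1 no other annotated gene matched by these limits (at least 90% identity over 300 bases).

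Upf1, the helicase at the centre of nonsense-mediated decay, had the largest difference among the 9 partners and did not pass the test. Upf1 (chr8:70331525-70353278, minus strand) was at 15.2 and 15.8 FPKM in CD38 KO and at 17.5 and 18.3 FPKM in WT. The 2 genotypes did not overlap, and CD38 KO was at 86.5% of the WT level. Its log2 change was -0.20 (SE 0.06, 95% interval -0.34 to -0.05, unadjusted p = 0.0166, limma adjusted p = 0.0832), and the adjusted p was 0.0710 to 0.296 over the alternatives. Upf3b, which links the UPF proteins to the exon junction complex, showed the same order of libraries. Upf3b (chrX:37091678-37110322, minus strand) was at 11.5 and 12.0 FPKM in CD38 KO and at 12.7 and 13.9 FPKM in WT. Its log2 change was -0.16 (SE 0.07, 95% interval -0.34 to 0.01, limma adjusted p = 0.188).

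Upf2 and Smg1 did not pass the test either. Upf2 (chr2:5951469-6056703, plus strand), the bridge between UPF3 proteins and UPF1, was at 10.8 and 9.92 FPKM in CD38 KO and at 9.56 and 10.4 FPKM in WT. The libraries of Upf2 overlapped (log2 change 0.05, SE 0.08, 95% interval -0.14 to 0.24, limma adjusted p = 0.724). Smg1 (chr7:118131308-118243670, minus strand), the kinase that acts on UPF1, was at 8.88 and 8.44 FPKM in CD38 KO and at 8.32 and 8.29 FPKM in WT. Smg1 was the partner with both CD38 KO libraries above both WT libraries, at 104% of the WT level (log2 change 0.05, SE 0.07, 95% interval -0.11 to 0.22, limma adjusted p = 0.640). In all, 4 of 9 partners had no overlap between the genotypes, 3 lower and 1 higher in CD38 KO, where 59.9% of all tested genes had no overlap (29.5% lower and 30.4% higher).

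Apart from Cwc22, the 10 genes kept nearly the same order of level per length in both genotypes. In CD38 KO the order by mean FPKM was Eif4a3, Magoh, Rbm8a, Casc3, Cwc22, Upf1, Upf3b, Upf2, Smg1 and Magohb. Casc3 and Cwc22 overlapped there, with means of 16.2 and 16.1 FPKM. In WT the order was Cwc22, Eif4a3, Magoh, Rbm8a, Upf1, Casc3, Upf3b, Upf2, Smg1 and Magohb. Cwc22 stood apart at the top in WT, with a gap of 192 FPKM to Eif4a3, beside an SD of 36.3 FPKM. Smg1 and Magohb in WT differed by 0.804 FPKM, less than the SD of 1.08 FPKM of Magohb. Upf1 and Casc3 changed places in the order of means. Their libraries overlapped in CD38 KO, so their order there is not settled. Upf1 was at 15.5 ± 0.422 FPKM in CD38 KO and 17.9 ± 0.569 FPKM in WT, and Casc3 at 16.2 ± 1.72 FPKM in CD38 KO and 15.9 ± 0.804 FPKM in WT (SD, n = 2 each).

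The wider sets of genes around the exon junction showed 7 called genes among 88 tested, 5 higher and 2 lower in CD38 KO. All 88 genes of the lists passed the filter, and their median log2 change was -0.01, beside 0.00 for all tested genes. Of all tested genes, 8.0% were called higher and 6.35% lower. Of the 15 proteins that join the core at its edge, in splicing or in export of the RNA, 0 were called, 2 had an unadjusted p under 0.05, and the median change was -0.05. Alyref, an export adaptor, was at 22.1 and 22.1 FPKM in CD38 KO and at 20.3 and 19.2 FPKM in WT (log2 change 0.15, SE 0.06, limma adjusted p = 0.128). Poldip3, an export factor tied to the complex, was at 24.6 and 23.3 FPKM in CD38 KO and at 25.9 and 28.1 FPKM in WT (log2 change -0.16, SE 0.06, limma adjusted p = 0.151). Acin1, a subunit of a splicing complex that binds the core, and Thoc2, of the export complex THO, had log2 changes of -0.14 and -0.10 (limma adjusted p = 0.255 and 0.436).

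Among 25 other genes of the catalytic spliceosome, where CWC22 itself acts, 0 were called, 4 had an unadjusted p under 0.05, and the median change was 0.00. The GTPase gene Eftud2 was at 50.1 and 49.0 FPKM in CD38 KO and at 56.4 and 53.9 FPKM in WT (log2 change -0.15, SE 0.05, limma adjusted p = 0.0950). Aqr, a helicase that has been linked to deposition of the exon junction complex, was at 12.4 and 11.8 FPKM in CD38 KO and at 14.8 and 13.2 FPKM in WT (log2 change -0.20, limma adjusted p = 0.149). Bcas2, a subunit of the Prp19 complex, and Slu7, which acts in the second step of splicing, lay on the other side at 0.14 and 0.18 (limma adjusted p = 0.113 and 0.120). These 4 were named for the smallest p in the list, with 2 lower and 2 higher in CD38 KO. Over the 25 genes, 8 had libraries that did not overlap between the genotypes, beside 59.9% of all tested genes.

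Among 20 factors of nonsense-mediated decay, 1 was called, and the median change was -0.03. Smg9, a subunit of the SMG1 kinase complex, was at 8.10 and 8.01 FPKM in CD38 KO and at 9.88 and 11.3 FPKM in WT. Smg9 was called lower (log2 change -0.35, SE 0.08, limma adjusted p = 0.0446), and the call ended with any library left out, at an adjusted p of 0.197 without CD38 KO 1, 0.198 without CD38 KO 2, 0.0749 without WT 1 and 0.197 without WT 2. Smg8, the other subunit, named here after its values were seen, was at 7.15 and 6.11 FPKM in CD38 KO and at 6.25 and 6.10 FPKM in WT, with overlapping libraries. The decapping genes Dcp1a and Pnrc2 had log2 changes of -0.17 and -0.18 (limma adjusted p = 0.178 and 0.250), and Upf3a, the paralog of Upf3b, one of -0.12 (limma adjusted p = 0.258).

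Transcripts known as targets of nonsense-mediated decay in mouse or human cells moved in both directions. Of 21 tested, 5 were called higher and 1 lower in CD38 KO, 11 had an unadjusted p under 0.05 (7 higher and 4 lower), and the median change was 0.03. Over all tested genes, 8.0% were called higher, 6.35% were called lower and 30.3% had an unadjusted p under 0.05. Gas5, a noncoding host gene of small nucleolar RNAs whose spliced transcript is degraded by this pathway, was at 159 and 154 FPKM in CD38 KO and at 253 and 252 FPKM in WT. The WT libraries were close together and far above both CD38 KO libraries. Gas5 fell by 0.69 on the log2 scale (SE 0.04, limma adjusted p = 0.000411) and was called with each library left out.

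The 5 higher target transcripts included genes that are also induced by stress, but the list members linked to stress did not all rise. Atf4 was at 115% of its WT level and Gadd45a at 102%, while Gadd45b was at 91.8% and Trib3 at 69.7%. None of these was called, and they were named after their values were seen. Atf3, a stress-induced transcription factor, was at 30.1 and 27.4 FPKM in CD38 KO and at 16.3 and 19.2 FPKM in WT (log2 change 0.67, SE 0.09, limma adjusted p = 0.00914). Cdkn1a, an inhibitor of the cell cycle, was at 248 and 230 FPKM in CD38 KO and at 189 and 175 FPKM in WT (log2 change 0.39, SE 0.06, limma adjusted p = 0.0120). Nat9, an acetyltransferase gene, was at 18.1 and 18.3 FPKM in CD38 KO and at 13.6 and 13.5 FPKM in WT (log2 change 0.40, SE 0.05, limma adjusted p = 0.00862). Ddit3, which encodes the stress factor CHOP, and Upp1, a uridine phosphorylase, rose by 0.26 and 0.30 (limma adjusted p = 0.0201 and 0.0347), and were named after their values were seen because they complete the 5. All 5 genes had both CD38 KO libraries above both WT libraries, as did 30.4% of all tested genes. Over the list of 21 targets, 15 had libraries that did not overlap between the genotypes, beside 59.9% of all tested genes.

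Without CD38 KO 1, CD38 KO 2, WT 1 or WT 2, the called members of the target list numbered 1, 1, 3 and 2, and Gas5 was among them each time. Atf3 lost its call without CD38 KO 1 (adjusted p = 0.110) and without CD38 KO 2 (0.0767). Cdkn1a lost its call without CD38 KO 1 (0.103), CD38 KO 2 (0.0633) and WT 2 (0.0843). Nat9, Ddit3 and Upp1 lost theirs with any library left out (adjusted p up to 0.0838, 0.116 and 0.180). The summed level of the 12 microglia and macrophage markers, 248 and 223 FPKM in CD38 KO against 32.1 and 30.6 FPKM in WT, moved with the higher members of the list, and its part in these changes was not tested.

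**Figure D4:**
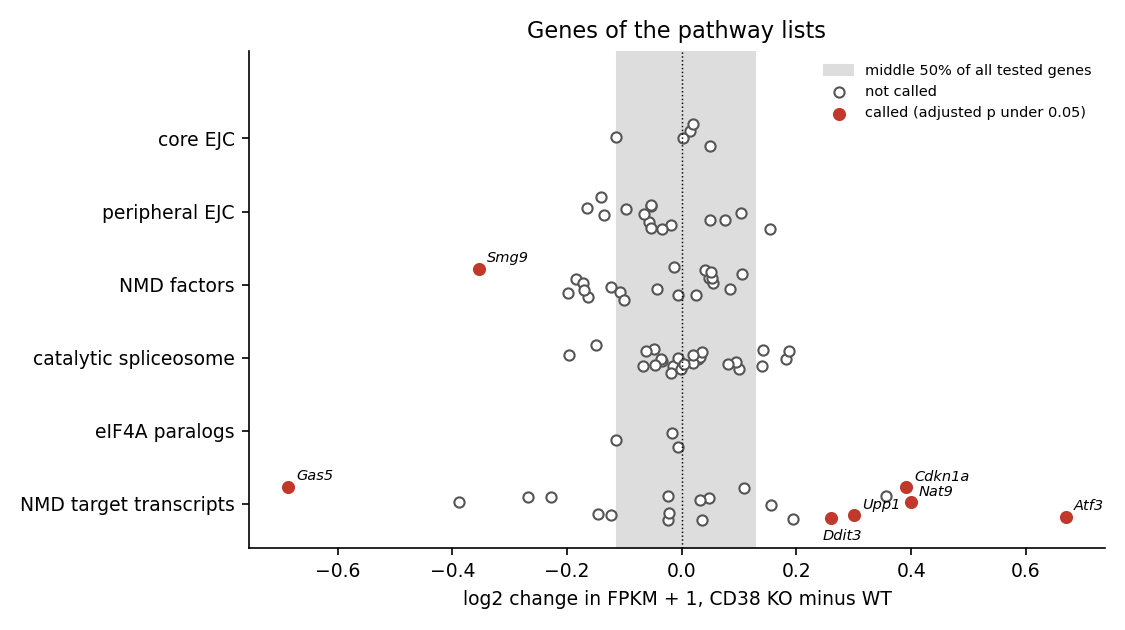
Change in log2(FPKM + 1), CD38 KO minus WT, of every gene in the 6 lists around the exon junction complex (EJC) and nonsense-mediated decay (NMD), with a point for each gene, spread vertically within its list for sight. Filled points are called by limma. Smg9 and the 6 labelled target transcripts are filled, and every other point is open.

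The tested genes that neighbour Cwc22 on chromosome 2 had smaller differences between the genotypes than Cwc22. The closest entries, Gm13727 and Gm13726, did not pass the filter and are not among them; as given above, both were listed at 0 in CD38 KO and were below 1 FPKM in WT. Within 2 Mb of the Cwc22 start, 14 other genes were tested, with a median log2 change of -0.03 and a range of -0.48 to 0.57. Of these, 3 were called (21.4%), Ccdc141 and Fkbp7 lower and Pde1a higher, beside 14.4% of all tested genes, and 0 were called with any library left out. The nearest tested gene on the lower side was Zfp385b, a zinc finger gene, with a log2 change of -0.09 (limma adjusted p = 0.626). The nearest on the higher side was Ube2e3, a ubiquitin-conjugating enzyme, at 49.3 and 50.5 FPKM in CD38 KO and at 50.1 and 52.0 FPKM in WT (log2 change -0.03, limma adjusted p = 0.676). Ccdc141 was at 4.79 and 4.71 FPKM in CD38 KO and at 7.27 and 6.72 FPKM in WT (log2 change -0.48, SE 0.08, limma adjusted p = 0.0168). Sestd1, Cerkl and Itprid2, the remaining close neighbours, had log2 changes of -0.12, 0.22 and -0.03 (limma adjusted p = 0.421, 0.346 and 0.723). Fkbp7 was at 32.2 and 31.3 FPKM in CD38 KO and at 37.7 and 39.8 FPKM in WT, and Pde1a at 7.89 and 8.55 FPKM in CD38 KO and at 5.54 and 4.92 FPKM in WT. Both were named after their values were seen. Within 10 Mb, 18 of 90 tested genes were called, 9 in each direction, beside 8.0% called higher and 6.35% called lower over all tested genes. The 90 changes lay between -0.78 and 1.35, and 1 to 4 genes were called with a library left out.

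**Figure D5:**
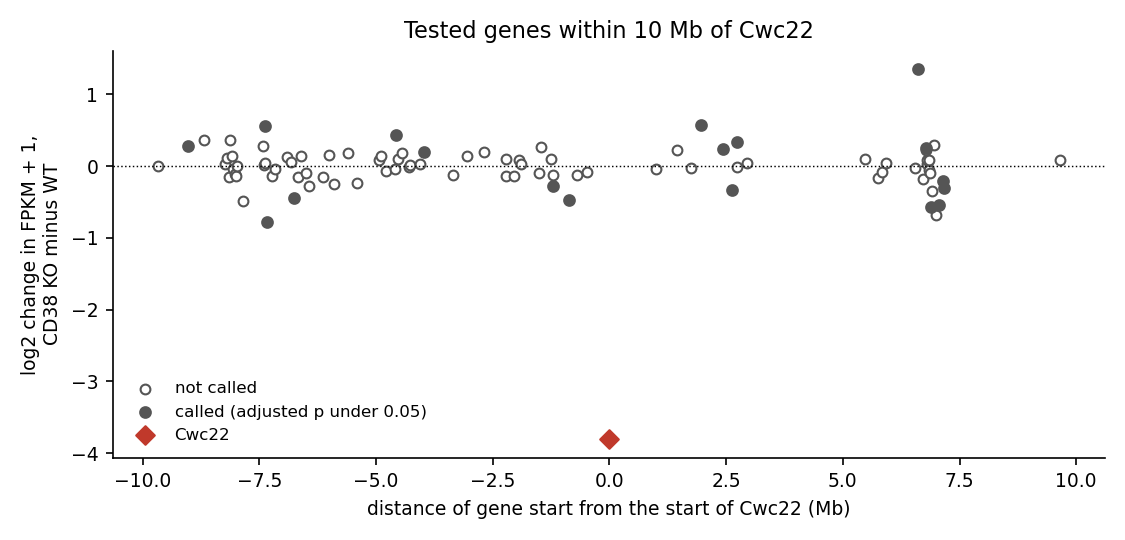
Change in log2(FPKM + 1), CD38 KO minus WT, of the tested genes within 10 Mb of Cwc22, by the distance of the gene start from the start of Cwc22 in Mb. Filled points are called by limma and the red diamond is Cwc22. Cwc22 is at -3.81, while its 90 neighbours lie between -0.78 and 1.35.

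The genes whose pattern over the 4 libraries was most like that of Cwc22 lay on other chromosomes. Likeness was the Euclidean distance between deviations from the gene mean in log2(FPKM + 1) over 4 libraries, of 2 genotypes. It mostly ranks genes by how near their difference between the genotypes is to that of Cwc22 on this scale. The scale understates the change of low genes. Cnmd, which encodes a cartilage protein and lies on chromosome 14, was nearest (distance 0.134), at 1.21 and 1.14 FPKM in CD38 KO and at 27.7 and 30.7 FPKM in WT. The pseudogene Rtraf-ps on chromosome 3 followed (distance 0.266), at 0.325 and 0.367 FPKM in CD38 KO and at 15.3 and 15.8 FPKM in WT. Serpina3m, a protease inhibitor gene on chromosome 12, was at 0.624 and 0.346 FPKM in CD38 KO and at 20.5 and 18.7 FPKM in WT (distance 0.379). That all 3 were far lower in both CD38 KO libraries than in either WT library follows from how they were chosen. By mean FPKM, Cnmd, Rtraf-ps and Serpina3m were 24.9-fold, 44.9-fold and 40.4-fold lower in CD38 KO, beside 14.9-fold for Cwc22. The pseudogenes Gm5514 on chromosome 19 and Gm5436 on chromosome 12 came next, at distances of 0.462 and 0.556. Gm5514 was at 7.53 and 6.39 FPKM in CD38 KO and at 142 and 131 FPKM in WT. By mean FPKM, Gm5514 was 19.6-fold and Gm5436 20.7-fold lower in CD38 KO.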

How the data were processed

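RNA of 4 libraries was measured, 2 per genotype, from polyA-selected stranded libraries per the labels' protocols. The deposited values are FPKM per gene, per the file headers, made on GRCm38 with STAR 2.7.0f and Cufflinks 2.2.1 after bcl2fastq 2.17, tools and build that the submitters' processing notes list. Not given in the sources used here are the annotation release and the handling of fragments with several matches. Depth is not stated; steps of 1 fragment in genes with a single transcript over 600 bases gave it, and 91.8% to 92.4% of values below 10 fragments lay within 0.1 of a whole number.

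The 13064 genes whose mean reached 1 FPKM were tested on log2(FPKM + 1) with limma 3.58.1 (R 4.3.3), genotype as the only term, with a trend. The p-values were adjusted by Benjamini-Hochberg across these genes. This scale understates the change of low genes. Percentages and folds are ratios of mean FPKM without the added 1. FPKM are not counts, so no count test was run. The fit was tested on simulated data. Positions are from GENCODE M21 on GRCm38, which holds 55140 of the IDs. The printed sequences come from its transcripts. Copies were sought with blastn 2.17.0 and aligned with Biopython 1.88. Figures were drawn with matplotlib 3.10.9, and tables were handled in Python 3.11.15 with pandas 2.3.3, scipy 1.17.1 and numpy 2.4.6.

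The members, the lists and the tests were chosen with earlier results of these data known. The genes named were the 10 members, up to 4 others per list with the smallest p, 3 neighbours on each side of Cwc22, the 5 of most similar pattern and Cd38. Alternatives were 0.1 or 0.5 added before the log, a filter at 5 FPKM or none, median-of-ratios scaling, quantile normalization, no trend, robust moderation, a replicate block and each library left out, where a lone library is assumed to vary as the other genotype does.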

Additional observations from a re-analysis of the deposited data

How the results depend on the processing

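The Cwc22 difference stayed between -3.96 and -3.65 on the log2 scale in all 14 alternatives, and no named gene with a call changed direction in any of them. The partners called numbered 0 in each, with any library left out too. The number of genes called, 1875, was 742 (430 higher and 312 lower) without a filter and 547 to 742 with a library left out. Among the 88 genes of the lists, 7 called genes became 2 without a filter and 1 to 3 with a library left out. Among genes within 2 Mb of Cwc22, 3 became 0 without a filter and 0 to 0 with a library left out. The cause was not tested, beyond the smaller number of samples in the last fits. Without a filter Smg9, Atf3, Cdkn1a, Ddit3, Upp1 and Ccdc141 lost their calls (adjusted p = 0.0553 to 0.138), and without a trend Smg9 and Ddit3 did (0.0668 and 0.0592).

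The replicate numbers do not pair libraries by the labels, and the deviations of same-numbered libraries had a correlation of -0.16 over genes. With the replicate block, 1037 genes were called (610 higher and 427 lower), 4 in the lists and 1 near Cwc22, and Smg9, Ddit3, Upp1 and Ccdc141 lost their calls. A block with crossed numbers, chosen after seeing the data, called 1961 genes, 8 in the lists and 3 near Cwc22.

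With 2 libraries per genotype, small changes of the partners are not detectable. The partners' intervals allow changes of up to 0.34 in size on the log2 scale.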
